A study of Mus musculus with 10 samples.

Results

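The genes described here are 53 genes that type I interferon induces, read by their symbols from 2 expression tables of 48897 rows each. The list was given by symbol and was chosen with earlier results of these data known. It was sorted here into 10 groups by the role of the protein. All 53 symbols were found in both tables. RNA-seq had been performed in 10 mouse samples. Sorted EpCAM+; CD45- cells from prostates of 3-month-old male C57BL/6 mice gave 3 libraries labelled PtenPC-/- (A, B and C) and 3 labelled PtenPC-/-; Arid1aPC-/- (A, B and C). All 6 of these samples carried the PtenPC-/- genotype, made with a Probasin-driven Cre that acts in prostate epithelium, so the controls were not wild type. The Myc-CaP cell line, a mouse prostate cancer line of the FVB strain, gave 2 Myc-CaP EV libraries (EV 1 and EV 2, empty vector) and 2 Myc-CaP Arid1a KO libraries (KO 1 and KO 2), made with a CRISPR guide vector. The labels do not say whether KO 1 and KO 2 are separate knockout lines. They give the same growth and treatment texts to all 10 samples. The study's methods describe RNA-seq of sorted cells from Myc-CaP tumours and, separately, of WT and Arid1a KO Myc-CaP cells. Growth in culture is read from that wording and the label of the cell line, and is not stated for these libraries.

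Type I interferons are secreted cytokines (the interferon alphas, beta, epsilon, kappa and others) that bind the receptor pair Ifnar1 and Ifnar2. The receptor activates the kinases Jak1 and Tyk2, and Stat2 is phosphorylated and joins Irf9 in a complex that binds interferon-stimulated response elements in promoters. The genes that follow are known for restricting viruses, and many are also raised in tumours and in cells in which nucleic acid sensors are active. Arid1a encodes a subunit of the SWI/SNF chromatin remodelling complex, and the comparison asks how these genes differ with its deletion.

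The epithelial values were RPKM (reads per kilobase of gene, relative to all mapped reads of the library) and the Myc-CaP values were TPM (also corrected for length, with every library brought to an equal total). Levels are therefore per length and may be set side by side between genes of a table, but not between the tables. Changes are given as the log2 fold change of value + 1, knockout minus control, with its standard error (SE). They come from limma, fitted to each table on its own, and a gene was called at a Benjamini-Hochberg adjusted p-value under 0.05 over all genes tested. Genes with a mean under 0.5 were not tested. The study's methods give 3 mice for the epithelium. Nothing says that the Myc-CaP libraries of a group came from separate cultures or animals, and their p-values then measure only the spread between these libraries.

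Arid1a itself was not reduced in the epithelium, with 25.4 ± 3.13 RPKM (SD, n = 3) in the controls and 30.2 ± 1.23 RPKM (SD, n = 3) in the libraries labelled Arid1aPC-/- (log2 fold change 0.25, limma adjusted p = 0.0540). The direction of every epithelial difference therefore rests on the labels. In Myc-CaP cells Arid1a fell from 60.7 ± 0.36 TPM (SD, n = 2) to 39.9 ± 0.58 TPM (SD, n = 2), with a log2 fold change of -0.59 and a limma adjusted p of 0.0102. Absolute depth is not given by either unit, and low values put the deepest library at 1.261 times the depth of the shallowest in the epithelium and at 1.154 times in Myc-CaP. RPKM values summed to 441646 to 473331 in the controls and to 397999 to 403031 in the libraries labelled Arid1aPC-/-, which matters for small differences and is taken up where it changes a value.

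Most interferon-stimulated genes were higher in the epithelial libraries labelled Arid1aPC-/-. Of 53 members tested, 44 were called higher (83.0%) and 1, Ifi27, was called lower, while 8 were not called. Over all 16275 genes tested, 27.5% were called higher and 29.6% lower (57.1% in either direction). With the libraries rescaled to an equal sum, 50 members were called higher and the split of all called genes moved from 48.1% to 64.6% higher. The median log2 fold change of the members was 0.50, against -0.03 for all tested genes. By the thresholds of the study (unadjusted p under 0.05 and at least 1.5-fold), 21 members were higher and 1 was lower, against 11.8% and 13% of all tested genes, and with the rescaled libraries 32 members were higher. These thresholds were applied here to the limma p-value and the fold of value + 1, whereas the study names DEGseq for its epithelial p-values. The 3 libraries labelled Arid1aPC-/- lay above all 3 controls in 44 members (Mx2, which was not called, in place of Isg15) and below them in 1, where 32.4% and 34.4% of all genes did so. The changes were moderate in size: 8 members rose by at least 1 on the log2 scale, 17 stood in the highest 10% of all genes, and none stood in the highest 100. In bulk libraries, a difference in the number of cells of a type and a difference in RNA per cell cannot be told apart.

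In Myc-CaP cells most of these genes were higher as well. Of 48 members tested, 41 were called higher in the Arid1a KO libraries (85.4%), 1 was called lower (again Ifi27) and 6 were not called, whereas 4.54% of 13974 tested genes were called higher and 1.89% lower (6.43% in either direction). The median log2 fold change of the members was 1.03, against -0.01 for all tested genes. By the study thresholds 39 members were higher and none was lower, against 4.62% and 1.66% of all genes. Both knockout libraries lay above both controls in 45 members and below them in 1, against 24.9% and 26.6% of all genes. Of the 100 largest rises in Myc-CaP, 12 were members, and 18 members stood in the highest 1% of all genes. With 2 libraries against 2, the call leans on the spread that limma shares across genes. Without EV 1, EV 2, KO 1 or KO 2 in turn, 12, 12, 6 and 7 members were called higher, where a lone library was assumed to vary like the other group. Lgals3bp, Oas3, Oasl2 and Usp18 were called in all 4 of these fits, and the log2 fold change of each of the 41 members stayed positive in them.

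**Figure D1:**
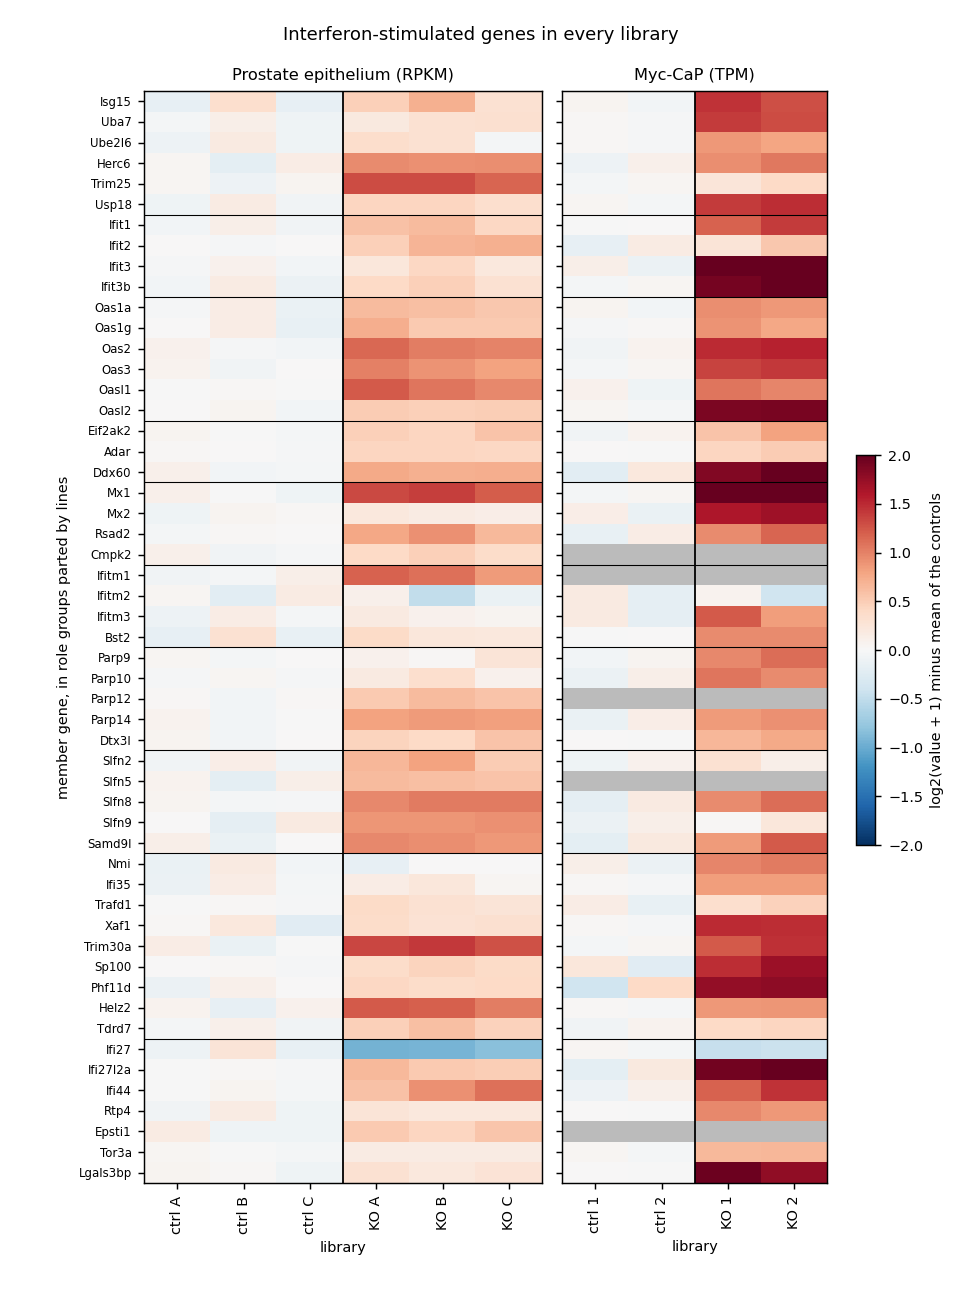
Each row is 1 of the 53 members, grouped by role, and each column is 1 library, with color for log2(value + 1) minus the mean of the controls of the same table (gray: not tested). The columns labelled KO are red in most rows of both tables, and Ifi27 is blue in both.

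**Figure D2:**
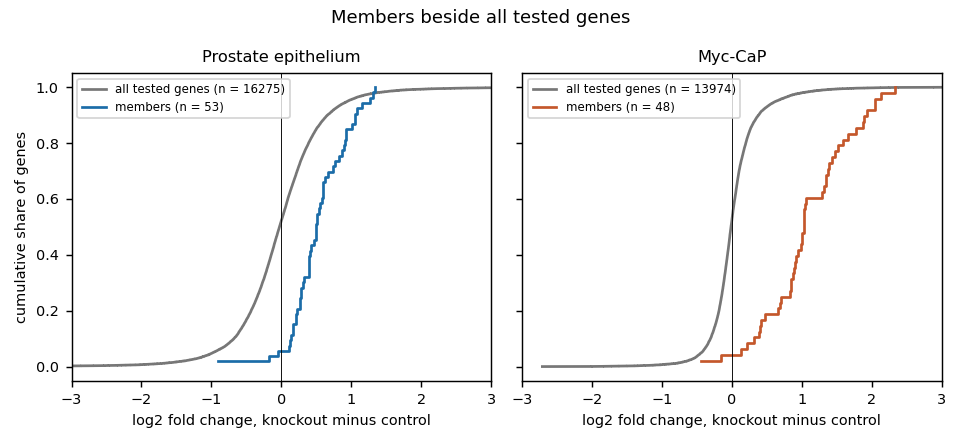
Cumulative share of genes (y axis) by log2 fold change, knockout minus control (x axis), for all tested genes in gray and for the members in color. The members lie to the right of all genes in both tables, with medians of 0.50 against -0.03 in the epithelium and 1.03 against -0.01 in Myc-CaP.

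The 5 members not tested in Myc-CaP cells were Cmpk2, Ifitm1, Parp12, Slfn5 and Epsti1. Parp12 was listed at 0 in all 4 libraries. Ifitm1 was listed at 0 in both EV libraries and at 0.141 and 0.612 TPM in KO 1 and KO 2. All 5 were measured in the epithelium and called higher there, so the lists compared in the 2 systems are not quite equal.

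The upstream sequences of the members are shown here because the interferon-stimulated response element is the sequence through which the complex of Stat2 and Irf9 acts. Its core was searched as GAAANNGAAA, and as TTTCNNTTTC for the other strand, with overlapping matches allowed, in the 250 bases upstream of each start site in RefSeq promoters (assembly GRCm38.p6). A promoter was found for 42 of 53 members (not for Oas2, Usp18, Rtp4, Tor3a, Ifi27l2a, Parp14, Parp10, Parp9, Mx1, Ifi27 and Mx2), and 16 of these 42 (38.1%) held the core, against 3.46% of 27025 genes. The core of the gamma-activated site (TTCNNNGAA) stood in 4 of 42 members (9.52%), against 8.13% of genes. The windows below run 5′ to 3′ on the strand of the gene, with the response element cores in capitals. The set was chosen to show members with repeated cores, the paralog pair Slfn8 and Slfn9, and Ifitm2, which holds a core and was not called in either table. They lie at chr4:156200850-156200921, minus strand (Isg15), chr19:34640760-34640838, plus strand (Ifit1), chr19:34583348-34583441, plus strand (Ifit3), chr5:120907526-120907570, minus strand (Oas1a), chr8:61928009-61928086, plus strand (Ddx60), chr8:71537562-71537627, minus strand (Bst2), chr11:83020824-83020883, minus strand (Slfn8), chr11:82991841-82991900, minus strand (Slfn9) and chr7:140955973-140956032, minus strand (Ifitm2).
Isg15: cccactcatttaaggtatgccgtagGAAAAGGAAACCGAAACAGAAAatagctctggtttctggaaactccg
Ifit1: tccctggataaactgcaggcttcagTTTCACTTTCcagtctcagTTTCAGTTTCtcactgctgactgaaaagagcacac
Ifit3: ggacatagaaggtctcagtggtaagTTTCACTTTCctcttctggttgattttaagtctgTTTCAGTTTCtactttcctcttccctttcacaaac
Oas1a: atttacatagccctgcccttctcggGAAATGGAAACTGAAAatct
Ddx60: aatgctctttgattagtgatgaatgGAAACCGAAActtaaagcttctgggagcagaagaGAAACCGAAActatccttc
Bst2: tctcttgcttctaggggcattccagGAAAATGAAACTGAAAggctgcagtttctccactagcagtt
Slfn8: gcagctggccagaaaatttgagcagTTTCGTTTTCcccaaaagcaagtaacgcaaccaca
Slfn9: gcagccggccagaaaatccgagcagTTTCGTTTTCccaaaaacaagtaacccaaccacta
Ifitm2: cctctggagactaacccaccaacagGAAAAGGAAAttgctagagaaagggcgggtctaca
Isg15 carried 3 overlapping cores in a single run, from 78 to 57 bases upstream of its start, while Ifit1, Ifit3 and Ddx60 carried 2 separate cores and Oas1a and Bst2 carried 2 that overlap. The window of Ifit3b had the same letters as that of Ifit3. The median log2 fold change was 0.59 in the 16 members with the core and 0.48 in the 26 without in the epithelium. In Myc-CaP it was 1.06 in 15 tested members with the core and 1.001 in 22 without. A match describes the letters and is no measurement of binding.

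Isg15 is a small ubiquitin-like protein that is attached to other proteins by the activating enzyme Uba7, the conjugating enzyme Ube2l6 and the ligases Herc6 and Trim25, and removed by Usp18, which also restrains the interferon receptor. In the epithelium 5 of these 6 members were called higher. Trim25 had the largest rise, with 30.9, 28.0 and 31.3 RPKM in the controls and 75.5, 76.1 and 68.9 RPKM in the libraries labelled Arid1aPC-/- (log2 fold change 1.26 ± 0.07, limma adjusted p = 1.90e-05), and the groups lay far apart. Isg15, the most abundant member of the group, measured 112, 159 and 113 RPKM in the controls and 176, 207 and 156 RPKM in the libraries labelled Arid1aPC-/-. Control B lay above 1 of the libraries labelled Arid1aPC-/-, so the groups overlapped, although Isg15 was called (0.50 ± 0.16, limma adjusted p = 0.0302). The limma adjusted p of Isg15 was 0.0943 without control A, 0.0948 without control C, and 0.0673 and 0.0977 without the libraries labelled Arid1aPC-/- A and B. Ube2l6 also overlapped and was not called (0.20 ± 0.12).

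In Myc-CaP cells the pattern within this group was different. Usp18 rose most, from 96.8 and 92.2 TPM in the EV libraries to 250.3 and 264 TPM in the KO libraries (log2 fold change 1.43 ± 0.06, limma adjusted p = 0.00167). Isg15 (chr4:156199424-156200818, minus strand, GRCm38) rose from 312 and 288 TPM to 822 and 738 TPM (1.37 ± 0.08, limma adjusted p = 0.00305), with the groups well apart and its 3 response element cores shown above. Uba7, Herc6 and Ube2l6 rose by 1.35, 0.99 and 0.83. Trim25, the largest epithelial rise of the group, measured 61.2 and 64.6 TPM against 74.8 and 83.0 TPM and was not called (0.32 ± 0.08, limma adjusted p = 0.0837).

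The Ifit proteins bind viral RNA whose cap lacks host marks, and the 4 genes stand in a cluster on chromosome 19. All 4 were called higher in the epithelium, with log2 fold changes of 0.28 to 0.62. Ifit2 rose most there, from 13.4, 13.0 and 13.3 RPKM to 18.7, 21.7 and 22.4 RPKM (0.62 ± 0.08, limma adjusted p = 0.000464), and Ifit3 was the most abundant, with 52.5, 56.4 and 51.1 RPKM in the controls and 62.3, 71.5 and 62.1 RPKM in the libraries labelled Arid1aPC-/- (0.28 ± 0.08, limma adjusted p = 0.0157, and 0.0601 without control C). No library of either gene crossed to the other group. In Myc-CaP cells another member led. Ifit3 (chr19:34583531-34588731, plus strand) had the largest rise of any member, from 1.80 and 1.36 TPM to 12.1 and 11.8 TPM (2.33 ± 0.14, limma adjusted p = 0.00347), which is a 7.56-fold ratio of the means. Ifit3b rose by 2.04 ± 0.16. Ifit1, the most abundant in this line, rose from 28.3 and 28.5 TPM to 65.5 and 76.3 TPM (1.29 ± 0.09), whereas Ifit2 measured 12.0 and 15.2 TPM against 16.2 and 19.985 TPM and was not called (0.39 ± 0.16). Ifit3 and Ifit3b share 51.2% and 44.5% of the 50-base windows of their longest transcripts, so the split of reads between them is uncertain.

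The Oas enzymes make 2′-5′ oligoadenylates when they meet double-stranded RNA, which activates RNase L, and the Oasl proteins are their relatives. All 6 genes were called higher in both systems. In the epithelium Oasl1 rose most, from 43.1, 44.0 and 43.1 RPKM to 103, 91.8 and 85.4 RPKM (1.09 ± 0.08, limma adjusted p = 5.05e-05). Oasl2 had the highest level, 82.0, 84.7 and 78.5 RPKM against 116, 114 and 115 RPKM, and the smallest rise of the group (0.49 ± 0.06). The 3 control libraries of both genes were tightly grouped and lay below every library labelled Arid1aPC-/-. In Myc-CaP cells Oasl2 rose most, from 31.2 and 29.3 TPM to 114 and 115 TPM (1.89 ± 0.06, limma adjusted p = 0.00135). Oas1a was the most abundant there, with 98.1 and 91.0 TPM in the EV libraries and 181 and 172 TPM in the KO libraries (0.90 ± 0.06). Oas2 and Oas3 rose by 1.06 and 0.90 in the epithelium and by 1.51 and 1.38 in Myc-CaP. Oas1a and Oas1g share 57.6% and 54.1% of their 50-base windows, and their separate values are uncertain for that reason.

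Among the genes that respond to double-stranded RNA directly, Eif2ak2 encodes the kinase PKR that halts translation, Adar edits adenosine to inosine, and Ddx60 encodes a helicase-like protein. All 3 were called higher in both systems, although the Myc-CaP calls of Eif2ak2 and Adar did not hold under every alternative that keeps all libraries. Ddx60 rose most in each. It measured 5.47, 4.77 and 4.82 RPKM in the epithelial controls and 9.15, 8.88 and 8.90 RPKM in the libraries labelled Arid1aPC-/- (0.73 ± 0.07, limma adjusted p = 0.000170). The same gene measured 4.63 and 6.53 TPM in EV and 22.6 and 25.1 TPM in KO libraries of Myc-CaP (1.93 ± 0.16, limma adjusted p = 0.00714). Adar, the most abundant in the epithelium, measured 20.8, 20.5 and 20.1 RPKM against 27.9, 27.9 and 27.5 RPKM (0.42 ± 0.05). The increase was small and the libraries of each group were nearly alike. In Myc-CaP Eif2ak2 measured 49.8 and 55.4 TPM against 78.2 and 92.6 TPM (0.69 ± 0.11).

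Mx1 and Mx2 belong to a family of dynamin-like GTPases known for trapping viral components. Rsad2 encodes viperin, which makes a chain-terminating nucleotide, and Cmpk2 encodes a nucleotide kinase beside it on chromosome 12. Mx1 rose strongly in both systems. In the epithelium it went from 12.3, 11.3 and 10.6 RPKM to 29.8, 31.3 and 27.7 RPKM (1.30 ± 0.08, limma adjusted p = 2.36e-05), and in Myc-CaP from 2.41 and 2.60 TPM to 14.4 and 14.2 TPM (2.13 ± 0.11, limma adjusted p = 0.00220). Mx2 did not follow it in the epithelium, where its groups lay apart but close together (6.69, 7.44 and 7.27 RPKM against 8.45, 8.15 and 7.90 RPKM) and the change was not called (0.17 ± 0.07, limma adjusted p = 0.0624). In Myc-CaP Mx2 rose from 15.1 and 12.5 TPM to 44.4 and 46.6 TPM (1.65 ± 0.11, limma adjusted p = 0.00419). Rsad2, the most abundant in the epithelium, rose from 50.3, 52.6 and 52.1 RPKM to 88.8, 97.7 and 81.2 RPKM (0.77 ± 0.08), and by 1.06 ± 0.13 in Myc-CaP. Mx2 is annotated as a polymorphic pseudogene in GENCODE M21.

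Ifitm1, Ifitm2 and Ifitm3 block fusion of virus and cell membranes, and Bst2 (tetherin) holds budding virus at the surface. This group held the member with the highest mean level in each table. In the epithelium 1 of 4 was called higher, near the share of all tested genes (27.5%). Ifitm1 rose from 52.6, 53.6 and 59.8 RPKM to 126, 120.2 and 101 RPKM (1.05 ± 0.10, limma adjusted p = 0.000138). Ifitm3, the most abundant of all members there, measured 632, 754 and 659.5 RPKM against 771, 723 and 704 RPKM and was not called (0.11 ± 0.10, limma adjusted p = 0.386). Its groups overlapped, as did those of Bst2 (0.28 ± 0.13) and Ifitm2 (-0.18 ± 0.16). In Myc-CaP cells Ifitm3 rose most, from 511 and 399.9 TPM to 1058 and 811 TPM (1.03 ± 0.17, limma adjusted p = 0.0379). Bst2, the most abundant member of that table, rose from 829.8 and 832 TPM to 1596 and 1608 TPM (0.95 ± 0.05, limma adjusted p = 0.00262), and its replicates were nearly equal. Ifitm2 measured 376 and 293 TPM against 348 and 253 TPM (-0.16 ± 0.19) with overlapping groups, although it holds a response element core.

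Parp10, Parp12 and Parp14 transfer single ADP-ribose units to proteins, and Parp9 works with the ubiquitin ligase Dtx3l. The epithelial calls were 4 of 5, and the exception was Parp9 (0.12 ± 0.07, limma adjusted p = 0.181). Parp14 rose most, from 17.1, 15.5 and 16.1 RPKM to 28.9, 30.1 and 29.5 RPKM (0.83 ± 0.06, limma adjusted p = 5.44e-05), and Parp12 went from 25.3, 24.0 and 25.3 RPKM to 36.3, 38.9 and 37.6 RPKM (0.58 ± 0.06). Groups of both genes were apart. In Myc-CaP cells all 4 tested genes were called higher. Parp9 had both the highest level and the largest rise, from 31.8 and 34.1 TPM to 64.8 and 72.7 TPM (1.04 ± 0.08, limma adjusted p = 0.00636). Parp9 and Dtx3l overlap at their start sites on opposite strands of chromosome 16, and the study's methods state that reads were counted by strand.

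The Schlafen genes act in lymphocyte growth and restrict virus translation, and Samd9l encodes an antiviral protein that also slows growth. All 5 were called higher in the epithelium and all 5 passed the study thresholds. Slfn8 rose most, from 6.80, 6.32 and 6.40 RPKM to 13.6, 14.4 and 14.5 RPKM (1.02 ± 0.06, limma adjusted p = 2.94e-05). Slfn2, the most abundant, rose from 95.3, 109 and 95.2 RPKM to 159, 175 and 143 RPKM (0.66 ± 0.09), and Slfn9 from 2.60, 2.18 and 3.07 RPKM to 5.66, 5.63 and 5.79 RPKM (0.90 ± 0.10), with no overlap of the groups in any of the 3. In Myc-CaP cells 2 of 4 tested genes were called. Samd9l rose from 29.0 and 38.0 TPM to 60.7 and 79.2 TPM (1.04 ± 0.18, limma adjusted p = 0.0409). Slfn8, at low levels, rose from 1.17 and 1.78 TPM to 3.71 and 4.33 TPM (1.03 ± 0.19, limma adjusted p = 0.0475). Neither call held under every alternative that keeps all libraries. Slfn9, which had the highest mean of the group in the EV libraries, measured 52.4 and 62.0 TPM against 57.9 and 66.7 TPM, overlapped and was not called (0.12 ± 0.11). The cores near the start sites of Slfn8 and Slfn9 have the same letters in the windows above, while the log2 fold changes in Myc-CaP were 1.03 and 0.12.

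Regulators and nuclear proteins formed the largest group. Trim30a is a ligase that dampens inflammatory signaling, Sp100 and Phf11d are nuclear proteins, Helz2 is a helicase-like coactivator, Xaf1 binds the apoptosis inhibitor XIAP, and Nmi and Ifi35 form a complex. In the epithelium 7 of 9 were called higher. Trim30a had the largest rise of all 53 members, from 16.0, 12.9 and 14.2 RPKM to 37.5, 39.7 and 36.1 RPKM (1.34 ± 0.09, limma adjusted p = 3.20e-05), and ranked 340 among 16275 genes. Trafd1, the most abundant, rose from 58.9, 60.8 and 58.8 RPKM to 77.9, 73.4 and 71.3 RPKM (0.31 ± 0.06), and Helz2 rose by 1.15 ± 0.09. Nmi (-0.05 ± 0.10) and Ifi35 (0.14 ± 0.09) overlapped and were not called. In Myc-CaP cells 8 of 9 were called higher, Nmi (1.01 ± 0.11) and Ifi35 included. Phf11d had the largest log2 fold change, from 0.34 and 1.30 TPM to 4.95 and 5.09 TPM (1.78 ± 0.29, limma adjusted p = 0.0355), from a control level near the limit for testing and with EV 1 well under EV 2. Ifi35, the most abundant in this line, went from 69.8 and 67.2 TPM to 123 and 124 TPM (0.84 ± 0.05), with its replicates close together. Trim30a rose by 1.34 ± 0.10, close to its epithelial value.

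The remaining members are proteins with less defined roles, and they held the single fall. Ifi27 and Ifi27l2a encode small membrane proteins of a family and are neighbours on chromosome 12 (chr12:103434211-103440239, plus strand, and chr12:103442167-103443680, minus strand, GRCm38). Ifi27 fell in both systems. In the epithelium it measured 79.3, 102 and 76.8 RPKM in the controls and 43.9, 44.3 and 47.3 RPKM in the libraries labelled Arid1aPC-/- (-0.90 ± 0.11, limma adjusted p = 0.000412). In Myc-CaP it measured 93.6 and 89.1 TPM in EV and 65.8 and 67.8 TPM in KO libraries (-0.44 ± 0.06, limma adjusted p = 0.0213). The groups did not overlap in either table. The Myc-CaP call of Ifi27 was lost without any 1 of its 4 libraries (limma adjusted p of 0.126 to 0.165). Ifi27l2a went the other way. It rose from 61.2, 62.7 and 60.4 RPKM to 97.4, 88.5 and 87.3 RPKM in the epithelium (0.56 ± 0.06, limma adjusted p = 0.000342) and from 23.5 and 31.3 TPM to 106 and 125 TPM in Myc-CaP (2.05 ± 0.16, limma adjusted p = 0.00585), where it was the largest rise of the group. All other members of the group that were tested were called higher. Ifi44 led in the epithelium, from 12.1, 12.7 and 11.8 RPKM to 18.8, 23.8 and 27.4 RPKM (0.87 ± 0.12), with spread among the libraries labelled Arid1aPC-/-. Lgals3bp, a secreted glycoprotein and the most abundant of the group in the epithelium, rose from 338, 332 and 306 RPKM to 399.8, 378 and 393 RPKM (0.26 ± 0.08). That call was lost without control C or without the library labelled Arid1aPC-/- A or C (limma adjusted p of 0.0884, 0.0706 and 0.0524). In Myc-CaP cells Lgals3bp went from 25.1 and 24.8 TPM to 100.1 and 87.6 TPM (1.87 ± 0.08, limma adjusted p = 0.00175).

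**Figure D3:**
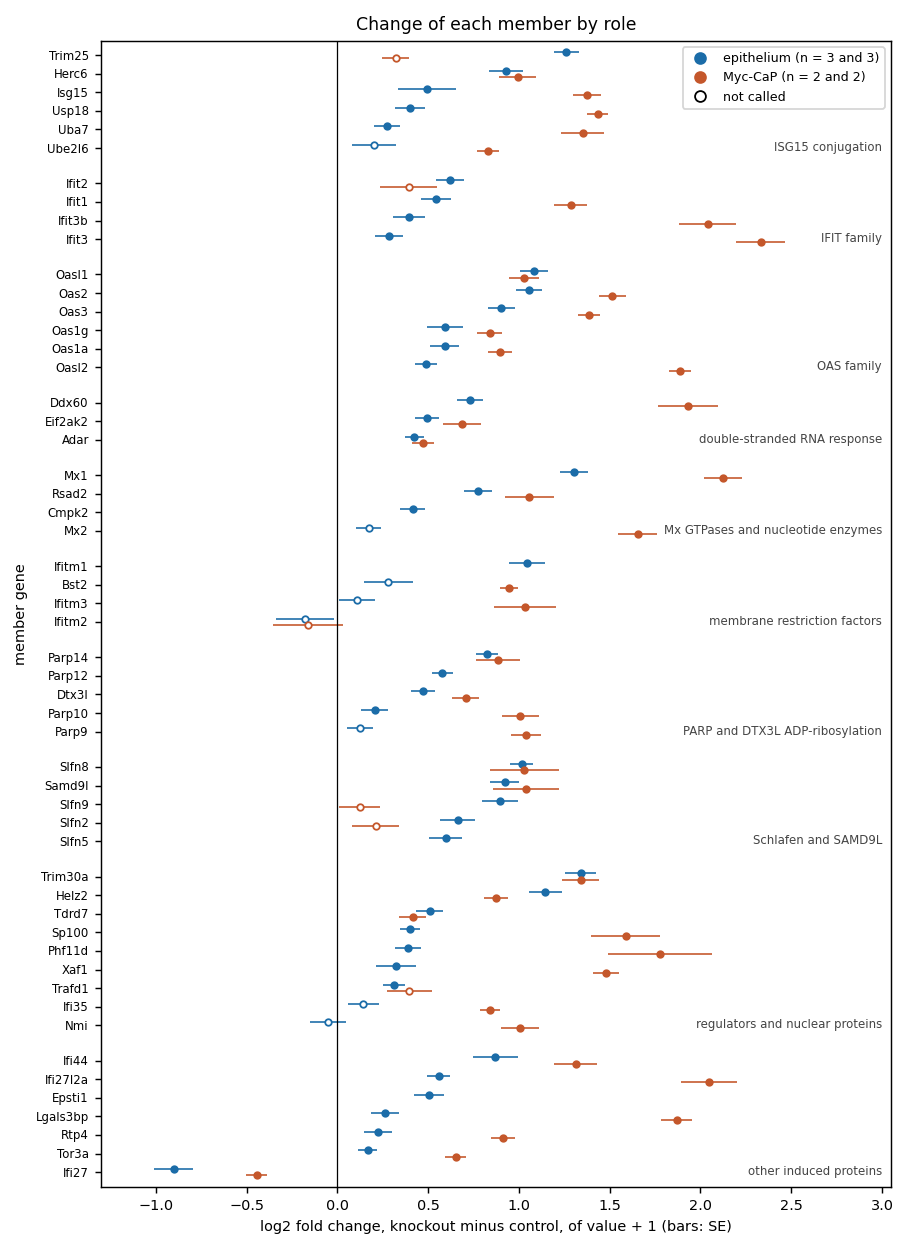
Log2 fold change of value + 1, knockout minus control, with its standard error (x axis), for each member by role (y axis), in the epithelium in blue and in Myc-CaP in orange, with open points for members not called. Ifi27 is the single member left of 0 and called, at -0.90 and -0.44.

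The 2 systems were then set side by side, with no library shared between them. Of 48 members tested in both, 34 were called higher in each, 7 were called higher in Myc-CaP but not in the epithelium (Bst2, Ifi35, Ifitm3, Mx2, Nmi, Parp9 and Ube2l6) and 5 the reverse (Ifit2, Slfn2, Slfn9, Trafd1 and Trim25). Ifi27 was called lower in both and Ifitm2 in neither. No member was called in opposite directions. The list of 7 depended on the scaling of the epithelial libraries. With these rescaled to an equal sum, Bst2, Ifi35, Ifitm3, Mx2, Parp9 and Ube2l6 were called higher in the epithelium as well. Nmi was still not called, so most of that list is not read as a difference between the systems. The log2 fold change was the larger in Myc-CaP for 41 of the 48, but the tables were normalized separately and the difference was not tested. Sizes were ordered differently, with a Spearman's rho of 0.09 across the 48 members, which share libraries within a table and are not independent. In each table members with lower control levels had larger log2 fold changes, with a rho of -0.39 over 53 members in the epithelium and of -0.43 over 48 in Myc-CaP. The control values enter both quantities, which can by itself push rho below 0, so no trait of the members is read from it.

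**Figure D4:**
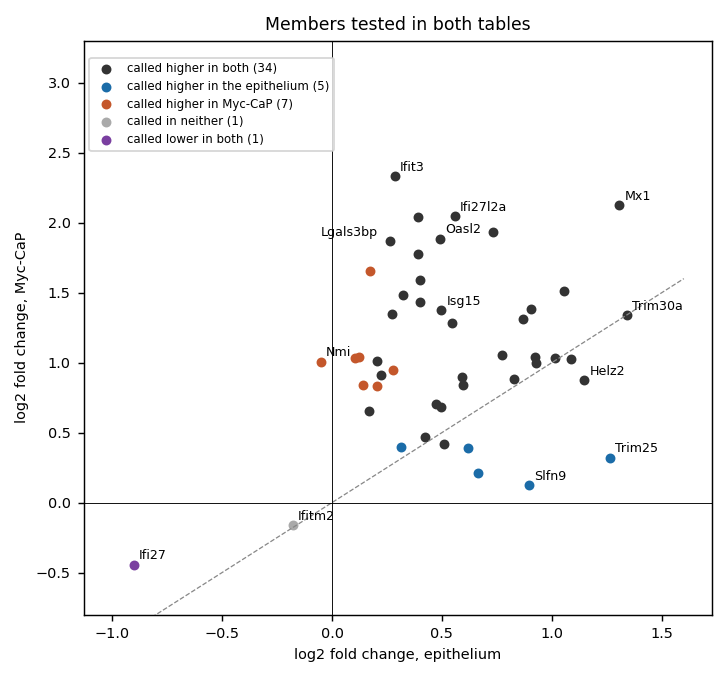
Log2 fold change in the epithelium (x axis) and in Myc-CaP (y axis) for the 48 members tested in both tables, colored by call, with the dashed line of equal values. Most points lie above the line, and 34 members were called higher in both.

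The upstream genes of the pathway were taken from a list of 65 genes. In the epithelium 49 were tested, 29 were called higher and 5 lower, against 27.5% and 29.6% of all tested genes, and the median log2 fold change was 0.39. In Myc-CaP 38 were tested, 9 were called higher and 0 lower, against 4.54% and 1.89% of all tested genes. The median was 0.17, and without EV 1, EV 2, KO 1 or KO 2 the calls were 2, 2, 1 and 1. The ligands were nearly silent. Summed over 19 ligand genes, the epithelial libraries measured 3.59 to 4.44 RPKM in the controls and 3.13 to 3.80 RPKM in those labelled Arid1aPC-/-. Ifnb1, the gene of interferon beta, was called lower in the epithelium, with 0.658, 2.07 and 1.17 RPKM in the controls and 0.384, 0.305 and 0.676 RPKM in the libraries labelled Arid1aPC-/- (-0.62 ± 0.22, limma adjusted p = 0.0429), and its groups overlapped. Ifne, the type I interferon of epithelia, rose from 0.61, 0.705 and 0.918 RPKM to 2.62, 2.12 and 2.35 RPKM (0.95 ± 0.10), and Ifng, the type II interferon, fell from 1.45, 0.751 and 1.14 RPKM to 0.163, 0.222 and 0.143 RPKM (-0.83 ± 0.13). In Myc-CaP none of the ligand genes reached the level for testing, and they summed to 0.343 to 0.505 TPM in the controls and 0.314 to 0.531 TPM in the KO libraries.

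The signaling genes below the receptor moved with the members in part. Ifnar1 and Ifnar2 rose by 0.47 ± 0.08 and 0.21 ± 0.07 in the epithelium, and none of 5 tested receptor genes was called in Myc-CaP (Ifnar1 -0.00 ± 0.08, Ifnar2 0.15 ± 0.10). Stat2 rose in both systems, from 32.5, 30.2 and 30.7 RPKM to 40.9, 41.2 and 40.7 RPKM in the epithelium (0.39 ± 0.06, limma adjusted p = 0.000975) and from 13.3 and 11.3 TPM to 23.9 and 26.4 TPM in Myc-CaP (0.98 ± 0.11, limma adjusted p = 0.0144). Jak2 was also called higher in both, by 0.999 in the epithelium and by 0.88 in Myc-CaP. The receptor's kinases Jak1 and Tyk2 were called higher in the epithelium (0.49 ± 0.10 and 0.46 ± 0.09). In Myc-CaP neither was called (0.18 ± 0.07 and 0.21 ± 0.08, limma adjusted p of 0.212 and 0.231). Irf9, the DNA-binding partner of the complex, rose in Myc-CaP (0.40 ± 0.07), while in the epithelium it measured 43.9, 47.1 and 42.5 RPKM against 43.3, 43.9 and 46.4 RPKM (0.00 ± 0.06). Irf7, which amplifies interferon production, was likewise called in Myc-CaP and not in the epithelium. It went from 65.0 and 64.7 TPM to 201 and 209 TPM in Myc-CaP (1.64 ± 0.05, limma adjusted p = 0.00135). In the epithelium it measured 184, 214 and 174 RPKM against 206, 195 and 201 RPKM with overlapping groups (0.08 ± 0.09, limma adjusted p = 0.464), and the difference between the systems was not tested. With the epithelial libraries rescaled to an equal sum, 35 pathway genes were called higher instead of 29. Single pathway genes were not followed in that setting, so the epithelial calls of Irf7, Irf9 and other pathway genes may depend on the scaling. Of the other regulatory factors in the epithelium, Irf1 and Irf3 were called lower (-0.37 ± 0.07 and -0.42 ± 0.07), and Irf2, Irf4, Irf5 and Irf8 higher. Among 11 inhibitors, 2 were called higher (Ptpn6 and Irf2bp2) and 1 lower (Irf2bp1) in the epithelium, where 27.5% and 29.6% of all tested genes were. In Myc-CaP 1 was called higher (Ptpn11), against 4.54% of all tested genes. Counts this small say little about the list.

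Sensors of nucleic acids were called higher for 12 of 15 genes in the epithelium and for 3 of 11 tested in Myc-CaP. Of all tested genes 27.5% and 4.54% were called higher. The RNA sensor Ddx58 (RIG-I) rose by 0.66 ± 0.06 in the epithelium and by 0.88 ± 0.06 in Myc-CaP. Zbp1, a sensor of Z-form nucleic acid, rose by 0.72 ± 0.07 in the epithelium and by 2.14 ± 0.27 in Myc-CaP, where it went from 4.22 and 2.04 TPM to 16.6 and 16.5 TPM. Tlr3 rose in Myc-CaP (0.85 ± 0.15) and was not called in the epithelium (0.02 ± 0.09). The epithelial rises were led by Tlr7, a receptor used mainly by immune cells, with 3.95, 3.33 and 3.50 RPKM in the controls and 9.63, 8.50 and 10.0 RPKM in the libraries labelled Arid1aPC-/- (1.18 ± 0.09). Mb21d1 (cGAS) and Tmem173 (STING) rose there by 0.70 ± 0.10 and 0.43 ± 0.06, and were not called in Myc-CaP (0.11 ± 0.13 and 0.09 ± 0.13).

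**Figure D5:**
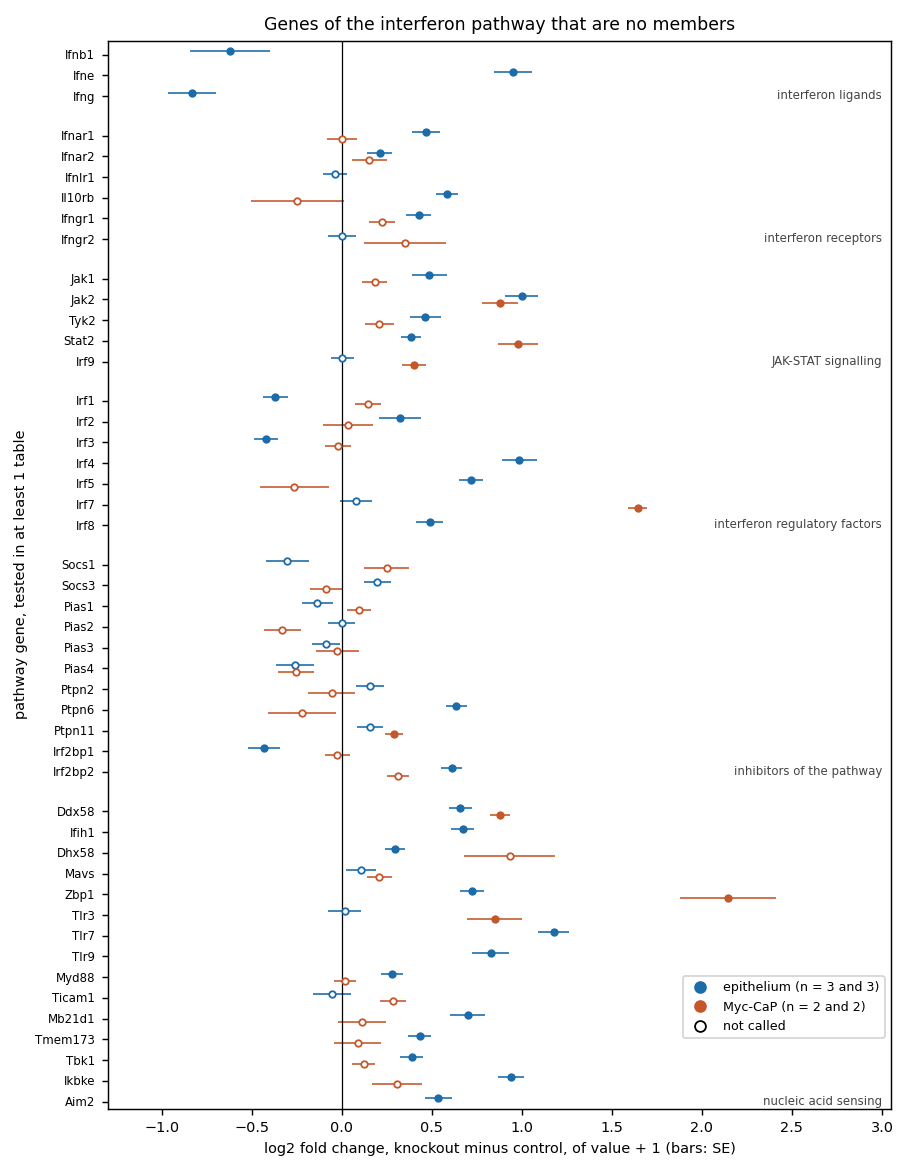
Log2 fold change of value + 1, knockout minus control, with its standard error (x axis), for pathway genes tested in at least 1 table (y axis), a few of which are left out, in the epithelium in blue and in Myc-CaP in orange, with open points for genes not called. Stat2 and Jak2 are called higher in both tables, while Irf7 (1.64) and Irf9 (0.40) are called in Myc-CaP and open in the epithelium, where the libraries were not rescaled.

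Markers of other cells also differed between the epithelial groups, in a table where 27.5% of all genes were called higher and 29.6% lower, so that counts near these shares say little about a list. The sort was for CD45- cells, yet Ptprc, the gene of CD45, was measured at 30.3, 26.0 and 29.5 RPKM in the controls and at 56.2, 58.1 and 57.6 RPKM in the libraries labelled Arid1aPC-/- (0.98 ± 0.07). Of 6 leukocyte markers 5 were called higher and 1, Cd52, lower, and their sum was 792 to 819 RPKM in the controls and 942 to 1012 RPKM in those labelled Arid1aPC-/-. All 8 macrophage markers were called higher, and their sum was 2305 to 2692 RPKM in the controls and 4130.1 to 4838 RPKM. Among neutrophil markers 4 of 8 were called higher and 1 lower (summed 320.4 to 450.3 RPKM in the controls and 367 to 605 RPKM), and among T cell markers 5 of 8 were called higher (summed 33.2 to 39.3 RPKM in the controls and 50.4 to 56.0 RPKM). B cell markers were called higher for 4 of 5 tested (summed 125 to 140.1 RPKM in the controls and 429.9 to 752 RPKM), and plasmacytoid dendritic cell markers for 4 of 6, with 1, Klk1, lower (summed 10.6 to 11.7 RPKM in the controls and 11.8 to 14.0 RPKM). Klk1 made up much of the control sum and fell from 6.38, 8.51 and 7.07 RPKM to 1.51, 1.23 and 1.49 RPKM, while Ccr9 rose from 0.569, 0.339 and 0.46 RPKM to 2.92, 3.53 and 2.85 RPKM and Spib from 0.972, 1.03 and 0.932 RPKM to 3.74, 4.49 and 4.26 RPKM. Epcam, the marker of the sort, fell from 279, 351 and 281 RPKM to 183, 194 and 225 RPKM (-0.59 ± 0.12), Krt18 also fell, Krt5 and Krt14 rose, and 4 of 8 epithelial markers were not called (summed 3257 to 3967 RPKM in the controls and 4113 to 4492 RPKM). Fibroblast markers were called lower for 3 of 6 (summed 1683 to 2456 RPKM in the controls and 1401 to 1971 RPKM), and 1 of 6 endothelial markers was called higher (summed 37.1 to 49.7 RPKM in the controls and 47.5 to 60.6 RPKM). No marker of these lists was at 0 in all epithelial libraries. The part of these markers in the rise of the interferon-stimulated genes was not tested.

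In Myc-CaP the leukocyte markers were at or near 0. Ptprc was listed at 0 and 0.0441 TPM in the EV libraries and at 0 in both KO libraries, C1qa, C1qc, S100a8 and Cd3e were listed at 0 in all 4, and the 6 leukocyte markers summed to 4.55 to 5.52 TPM in the controls and 4.002 to 4.06 TPM in the KO libraries, most of it Cd52. The macrophage markers summed to 0.823 to 2.92 TPM in the controls and 1.59 to 2.58 TPM, and neutrophil, T cell, B cell and plasmacytoid dendritic cell markers to at most 1.41 TPM in any library. The 53 interferon-stimulated genes summed to 3125 to 3309 TPM in the controls and 6085 to 6383 TPM in the KO libraries, and to 2940.4 to 3180.5 RPKM in the controls and 3689 to 3984 RPKM in the epithelial libraries labelled Arid1aPC-/-. Epithelial markers were low in the EV libraries of this line, summing to 1.57 to 1.82 TPM. In the KO libraries they summed to 42.2 to 49.8 TPM, most of it Krt8. Epcam was at 0 and 0 TPM in EV and 0 and 0.128 TPM in KO libraries, and Cdh1 at 0.0257 and 0.0585 TPM and 0 and 0.386 TPM. Krt8 went from 1.07 and 0.79 TPM to 40.3 and 38.8 TPM.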

How the data were processed

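RNA-seq of 10 mouse samples was used, grouped by the genotype in the labels. Per the study's methods, paired-end reads were aligned by the authors with TopHat2 (GRCm38/mm10) and counted by strand with HTSeq-count, while the submitters' processing notes name HISAT2, HTSeq, DESeq2 and mm10. The epithelium was deposited as RPKM and Myc-CaP as TPM, with gene lengths not given in the sources used here. Values were transformed to log2(value + 1), a gene was kept if its mean reached 0.5, and each table was fitted with limma 3.58.1 (lmFit, eBayes with a trend) in R 4.3.3, two-sided, with no covariate. The per-sample and series tables were identical in 10 of 10 samples. Members, role groups, pathway and marker lists were chosen with earlier results of these data known. Every member or pathway gene may be named. Values in every library are given for the largest rise, any called fall and the highest mean over all libraries in each role group and table, and for a few genes chosen after their values were seen. Same-letter libraries of the epithelium correlated at 0.04, 0.01 and -0.06 in their deviations from the group means, so no block was used. Positions came from GENCODE M21. The script was tested on simulated data. An exact permutation test cannot go below 0.1 with 3 libraries against 3, or below 0.333 with 2 against 2. Alternatives were another pseudocount, no filter, rescaled or quantile-normalized libraries, no variance trend, a replicate block and each library left out, and, chosen after seeing the data, removal of a trend on gene length. The authors' counts are not used here, and depth is known only in relative terms. A few genes of the pathway and marker lists are counted in list totals but not reported here by name.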

Additional observations from a re-analysis of the deposited data

Results flagged for a closer look

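No member lay wholly on one side of the controls in the epithelium and wholly on the other side in Myc-CaP, but 3 pathway genes did. Irf1 was lower in every library labelled Arid1aPC-/- (log2 fold change -0.37) and higher in both Myc-CaP KO libraries (0.14, not called). Irf5 was higher in every library labelled Arid1aPC-/- (0.72) and lower in both Myc-CaP KO libraries (-0.26, not called). Socs1, an inhibitor of the Jak kinases, was lower in every library labelled Arid1aPC-/- (-0.30, not called) and higher in both Myc-CaP KO libraries (0.25, not called). The difference between the systems was not tested, since the tables were normalized separately.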

How the results depend on the processing

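The count of members called higher in the epithelium (44) ran from 39 to 50 over the other settings that keep all libraries, was 48 with a trend on gene length removed (an alternative chosen after seeing the data), and ran from 36 to 46 without 1 library. Of the 44 members, 36 were called in every fit that left out 1 library, and the others were Ifit3, Isg15, Lgals3bp, Parp10, Rtp4, Tor3a, Uba7 and Xaf1. Rescaling the epithelial libraries to the same sum moved the median of all genes from -0.03 to 0.11 and the share of higher among called genes from 48.1% to 64.6%, and it gave 32 members past the study thresholds instead of 21, a member median of 0.67 and 3 pathway genes called lower instead of 5. The members that rescaling added to those called higher were Bst2, Ifi35, Ifitm3, Mx2, Parp9 and Ube2l6. The member median was 0.58 with the length trend removed. Nmi in the epithelium changed sign, to 0.12 when rescaled and 0.17 with the length trend removed. Without 1 library it ran from -0.12 to 0.040 (0.040 without control B and 0.0071 without the library labelled Arid1aPC-/- A). Ifitm2 changed sign, to 0.026 with the length trend removed in the epithelium, and in Myc-CaP it ran from -0.39 to 0.066 without 1 library (0.018 without EV 1 and 0.066 without KO 2). The cause was not tested.

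Of the 41 members called higher in Myc-CaP, 31 were called under every alternative that keeps all libraries. The others were Adar, Eif2ak2, Ifitm3, Parp14, Phf11d, Rsad2, Samd9l, Slfn8, Sp100 and Tdrd7. In Myc-CaP the members called higher (41) numbered 32 without the filter on low values and 32 without a variance trend, and 39 to 43 under the other alternatives that keep all libraries. Without EV 1, EV 2, KO 1 or KO 2 they numbered 12, 12, 6 and 7, and 39, 39, 39 and 38 passed the study thresholds. Fewer libraries enter these fits. The single member called lower (Ifi27) gave 0 called without a variance trend and 0 to 0 without 1 library. Pathway genes called higher (9) numbered 5 without the filter, 5 without a variance trend and 1 to 2 without 1 library. Libraries of the same number are not stated to be paired, and their deviations correlated at 0.19 in Myc-CaP. With the replicate block the Myc-CaP counts were 43 members called higher and 2 lower, and 14 pathway genes higher and 2 lower. Over all Myc-CaP genes tested, 2771 were called in either direction with the block, against 899 in the fit used above. Without the filter 358 were called, and without a variance trend 451. In the epithelium the replicate block gave 41 members higher and 1 lower, with 8823 of all genes called in either direction, against 9294 without the block. The depth is known only in relative terms, so no detection limit could be given for values at 0.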

Other observations

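The Myc-CaP libraries numbered 2 held more collagen transcript than those numbered 1 in both groups. Col1a1 measured 0.211 and 19.4 TPM in EV 1 and EV 2 and 0.347 and 7.45 TPM in KO 1 and KO 2, and Col1a2 measured 0.437 and 5.96 TPM and 0.44 and 2.19 TPM. The 53 interferon-stimulated genes summed to 3309 and 3125 TPM in EV 1 and EV 2 and 6383 and 6085 TPM in KO 1 and KO 2, lower in the library numbered 2 of each group. The median log2(value + 1) of the tested members went the other way. It was 4.71 and 4.88 in EV 1 and EV 2 and 5.91 and 6.05 in KO 1 and KO 2. Ifitm3 and Ifitm2, abundant members that weigh on the sum, were lower, and Slfn9 and Samd9l higher, in the library numbered 2 of each group.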
